A study of Mus musculus with 10 samples.

Results

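The solute carrier family 25 (SLC25) was followed in liver RNA-seq of fasted and refed mice. Its members were taken as the protein-coding genes whose symbol starts with Slc25a in the annotation of GRCm38, which gave 47 of the 41388 genes in the files. A transcribed pseudogene, Slc25a5-ps (6 to 26 counts per library), met the symbol part of the rule but not the protein-coding part. The libraries came from whole liver of C57B/6J mice aged 12 wk, 1 library per mouse, in 3 groups. WT Refed mice (n = 2) and WT Fasting mice (n = 3) had an intact Nampt gene, and NAMPT LKO Fasting mice (n = 5) lacked Nampt in hepatocytes. The deletion was made by crossing Nampt LoxP/LoxP mice with mice that express Cre from the Albumin promoter, which the study describes as hepatocyte-specific. Nampt was not measured by cell type here. The WT mice were LoxP/LoxP littermates without Cre. The labels give a fast of 24 h for both Fasting groups and, for WT Refed mice, a fast of 22 h followed by 2 h of refeeding. The study's text describes a shorter fast and randomly fed controls instead, so the length of the fast and the state of the refed mice are uncertain, and 1 of the WT Fasting mice that the study describes was not analysed here. No refed NAMPT LKO livers were analysed here.

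SLC25 carriers are encoded in the nucleus and most sit in the inner membrane of the mitochondrion, where each exchanges or imports particular small molecules: ADP and ATP, phosphate, citrate, malate, amino acids, acylcarnitines, CoA or NAD. In the liver they connect steps that are divided between the cytosol and the mitochondrial matrix, among them urea synthesis, fatty acid oxidation, gluconeogenesis and the export of citrate for lipid synthesis. NAMPT is the enzyme that recycles nicotinamide to NAD, and SLC25A51 carries NAD into the mitochondrion. The comparisons ask how the carriers' mRNAs differ between fasted and refed liver, and whether hepatocyte NAMPT is needed for their fasting level.

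Each library held 30603080 to 43434139 counts. Differences between groups are given as counts scaled to the library total (CPM) after TMM normalization, with the log2 fold change from edgeR's quasi-likelihood fit, and a gene was called where its p, adjusted by Benjamini and Hochberg over the 13444 genes tested, was at or under 0.05. Nampt was 11.8 to 15.3 CPM in the 5 NAMPT LKO Fasting livers, 63.0 to 141 CPM in the WT Fasting livers, and 67.8 and 78.0 CPM in the WT Refed livers. The hepatocyte markers (Alb, Apoa1, Ttr, Serpina1c, Cyp2e1, Cps1) were high in every library, and 0 of 6 were called in any comparison by edgeR or any other tool or at an unadjusted p under 0.05. NAMPT LKO mouse 5 stood apart: genes of the mitochondrial genome took 21.13% of its counts, against 7.42% to 12.86% in the other 9 libraries. The summed cholangiocyte markers (Krt19, Krt7, Epcam, Spp1) were 23.7 to 42.7 CPM in NAMPT LKO livers, 9.89 to 13.3 CPM in WT Fasting livers and 11.3 to 14.1 CPM in WT Refed livers.

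The carriers spanned a wide range of expression. On the deposited RPKM scale, which divides by exonic length and allows different genes to be compared, 22 of the 47 members averaged at least 10 RPKM in WT Fasting livers, 12 lay from 1 to 10 RPKM and 13 lay under 1 RPKM. Slc25a47, a carrier that is largely restricted to liver, was the highest at 564 ± 115 RPKM (SD, n = 3). Slc25a39, which is needed for mitochondrial glutathione import, followed at 177 ± 13.8 RPKM. Slc25a5, an ADP/ATP carrier, was also at 177 RPKM (SD 10.8), so the order of the latter pair was not resolved. The next pair, the acylcarnitine carrier Slc25a20 (88.7 ± 7.42 RPKM) and the citrate carrier Slc25a1 (87.0 ± 6.68 RPKM), also differed by less than the spread between mice. These 5 genes made up 62.6% of the summed RPKM of the family.

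**Figure D1:**
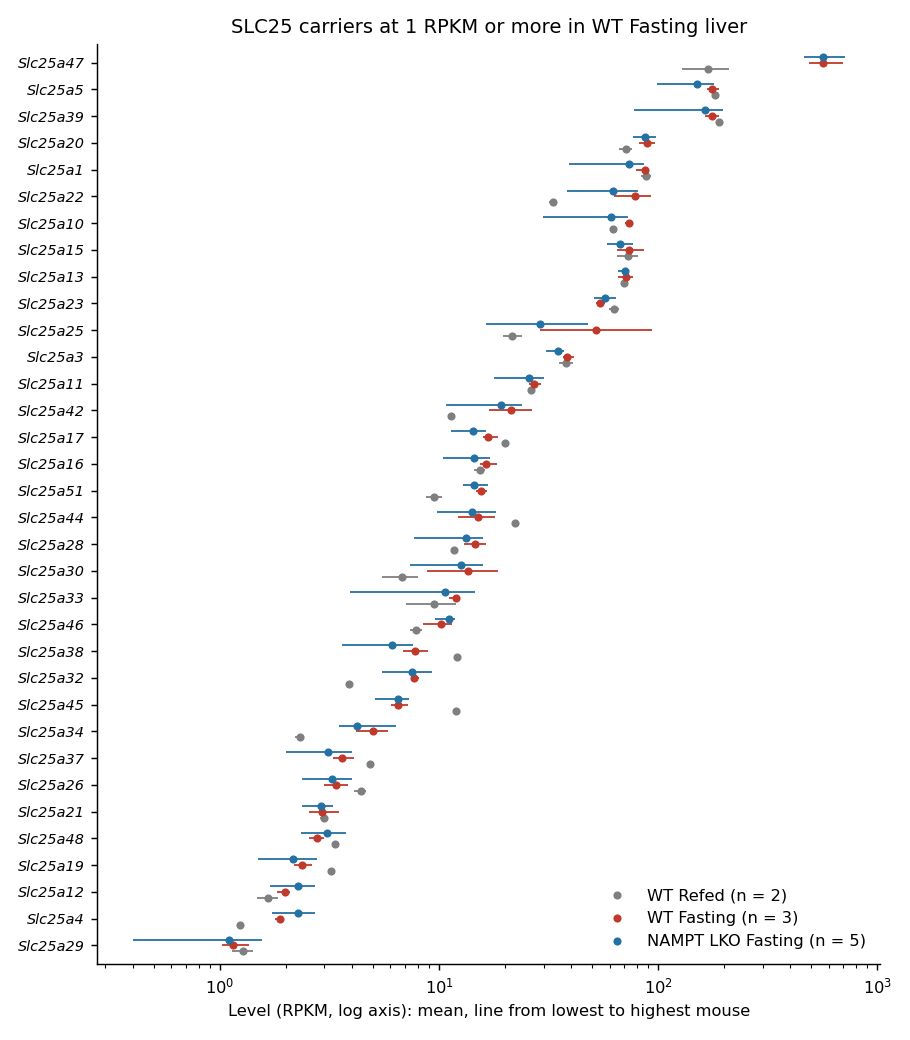
Level of each SLC25 carrier that averaged at least 1 RPKM in WT Fasting liver, on a log axis in RPKM; points are group means and lines run from the lowest to the highest mouse (n = 2 WT Refed, 3 WT Fasting and 5 NAMPT LKO Fasting). Slc25a47 is at 564 RPKM in WT Fasting and 169 RPKM in WT Refed livers, while Slc25a39 and Slc25a5 lie at 151 to 189 RPKM in all 3 groups.

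Other carriers of the urea cycle and of metabolite export were in the upper part of this range. The ornithine carrier Slc25a15 averaged 73.8 ± 11.0 RPKM and the aspartate/glutamate carrier Slc25a13 71.2 ± 5.50 RPKM (SD, n = 3 WT Fasting). The second aspartate/glutamate carrier, Slc25a12, averaged 1.99 ± 0.135 RPKM, and the second ornithine carrier, Slc25a2, had 0 to 14 counts per library. The dicarboxylate carrier Slc25a10 was at 74.0 ± 3.16 RPKM and the oxoglutarate carrier Slc25a11 at 27.1 ± 1.90 RPKM. Among the ADP/ATP carriers, Slc25a5 was at 177 RPKM and Slc25a4, the isoform best known from muscle and heart, at 1.88 ± 0.0774 RPKM. The phosphate carrier Slc25a3 averaged 38.5 ± 2.53 RPKM.

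In refed livers the family was ordered differently at the top. Slc25a39 (189 ± 2.68 RPKM, n = 2) and Slc25a5 (181 ± 4.42 RPKM) were ahead of Slc25a47 (169 ± 58.8 RPKM), although the spread of Slc25a47 between the refed mice was larger than these gaps. Slc25a47 took 5.9% and 9.3% of all counts on SLC25 genes in the WT Refed libraries, 18.6% to 21.3% in WT Fasting and 19.5% to 24.6% in NAMPT LKO Fasting libraries, so the refed range did not overlap either fasted range. The family as a whole took 0.342% and 0.357% of the counts in WT Refed, 0.415% to 0.516% in WT Fasting and 0.307% to 0.455% in NAMPT LKO Fasting libraries, where the lowest value belonged to mouse 5 and the other 4 were at 0.417% or above.

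Of the 47 members, 41 rose above 1 CPM in at least 1 library and were tested. Slc25a2, Slc25a18, Slc25a31, Slc25a41, Slc25a43 and Slc25a54 did not, with at most 24 counts in any library and none at all for Slc25a54. The filter was met by any 1 library, so members that passed through a single group had more room to differ.

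Of the 41 tested carriers, 6 were higher and 1 was lower in fasted than in refed WT liver. Slc25a47, the glutamate carrier Slc25a22, the orphan carrier Slc25a34, the folate and FAD carrier Slc25a32, the CoA carrier Slc25a42 and the NAD carrier Slc25a51 were higher in WT Fasting than in WT Refed livers, by 1.70-fold to 3.46-fold, and the orphan carrier Slc25a45 was lower. Of all genes tested, 7.04% were called in this comparison (2.68% higher and 4.36% lower). With 7 of 41 members called and 6 of them higher, the members' calls lay above the background for rises, but no test of the list was made. Under library size alone as scaling, 252 of all genes were called higher and 727 lower, against 360 and 586 here. The median log2 fold change of the members was 0.15, against 0.0372 over all genes tested. In bulk liver, fewer cells of a type and less RNA per cell cannot be told apart.

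Slc25a47 showed the largest called difference of the family. Its values were 323 and 196 CPM in WT Refed livers and 1096, 811 and 789 CPM in WT Fasting livers. All 3 fasted livers were far above both refed livers, and the refed livers differed from each other by more than the lower fasted pair. The log2 fold change was 1.79 (SE 0.24, edgeR adjusted p = 0.00207), or 3.46-fold. The gene (ENSMUSG00000048856) occupies bases 108851129 to 108856814 of chromosome 12 in GRCm38, plus strand. It kept its call without any 1 of the 10 libraries, with log2 fold changes of 1.47 to 2.18.

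Slc25a22 imports glutamate into the matrix together with a proton. It was at 125 and 134 CPM in WT Refed livers and 375, 267 and 312 CPM in WT Fasting livers. The refed livers lay close together and every fasted liver was higher (log2 fold change 1.30, SE 0.23, edgeR adjusted p = 0.00817).

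The carriers of cofactors and nucleotides held 3 of the 6 rises. Slc25a51, the NAD carrier, was at 46.5 and 55.3 CPM in WT Refed livers and 90.8, 89.1 and 80.5 CPM in WT Fasting livers. The groups did not overlap, and the log2 fold change was 0.77 (SE 0.15, edgeR adjusted p = 0.0111). Slc25a42, which exchanges CoA for adenine nucleotides, was at 66.9 and 64.0 CPM refed and 159, 128 and 99.9 CPM fasted. Its fasted values were spread over a range nearly as wide as the difference to refed (log2 fold change 0.98, SE 0.25, edgeR adjusted p = 0.0411). Slc25a32 was at 11.2 and 11.0 CPM refed and 23.9, 23.0 and 21.6 CPM fasted. Both groups were tight and apart by a log2 fold change of 1.04 (SE 0.26, edgeR adjusted p = 0.0342). Of the 9 tested members with such substrates, the other 6 did not pass in this comparison, and the median of the 9 was 0.26.

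Slc25a34 and Slc25a45 have no settled substrate. Slc25a34 was at 5.71 and 6.32 CPM refed and 11.2, 14.0 and 15.4 CPM fasted, a log2 fold change of 1.17 (SE 0.25, edgeR adjusted p = 0.0191). Slc25a45 went the other way, with 30.3 and 30.8 CPM refed and 16.6, 20.1 and 15.8 CPM fasted. All of its fasted values were below the refed ones, by a log2 fold change of -0.81 (SE 0.14, edgeR adjusted p = 0.00677).

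**Figure D2:**
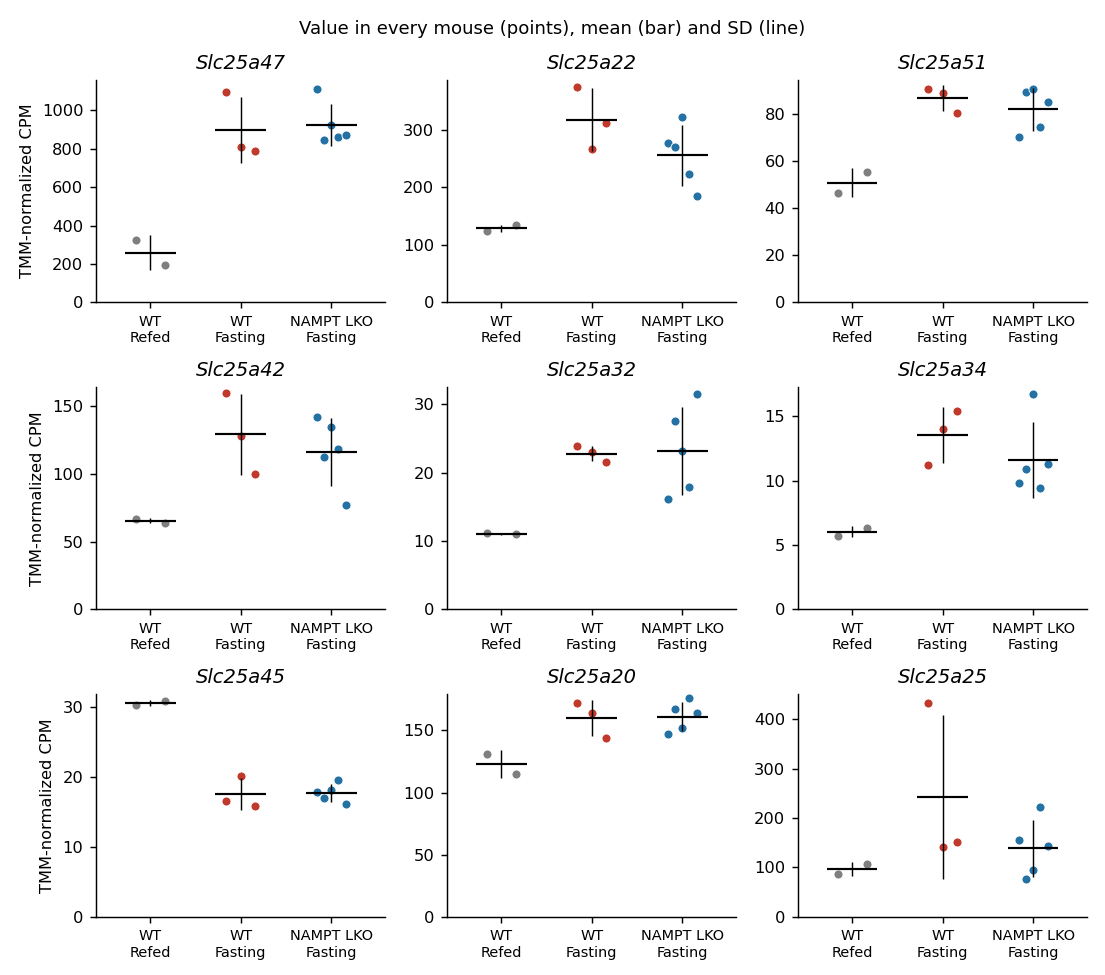
TMM-normalized CPM in every mouse (points) with the group mean (bar) and SD (line) for the 7 carriers called between WT Fasting and WT Refed livers and for Slc25a20 and Slc25a25, which were not called; each vertical axis starts at 0. The 3 WT Fasting points of Slc25a47 (789 to 1096 CPM) sit above both WT Refed points (196 and 323 CPM), and 1 WT Fasting mouse of Slc25a25 (433 CPM) is far above the other two (141 and 151 CPM).

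The calls depended on the pair of refed libraries. Without either WT Refed library, when the lone refed library is assumed to vary like the other groups, only Slc25a47 of the 41 members stayed called, and without NAMPT LKO mouse 5, which enters this fit through the shared spread, 13 members were called. Over all 13444 genes, the calls also became fewer without either refed library, and rose from 946 to 2235 without NAMPT LKO mouse 5. These shifts are therefore not particular to the carriers. With other libraries left out, Slc25a34 lost its call without WT Fasting mouse 2, and Slc25a32 without any 1 of the WT Fasting mice or without NAMPT LKO mouse 3. Slc25a42 lost its call without WT Fasting mouse 1 or 2 or NAMPT LKO mouse 2, 3 or 4. Under library size alone as scaling, Slc25a42 also lost its call (log2 fold change 0.91, edgeR adjusted p = 0.0957).

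The remaining 34 tested members did not pass, and for many the interval of the difference was wide. Groups did not overlap for 27 of the 41 members, 18 of them higher and 9 lower in fasted liver, but this held for 49.7% of all genes tested. Of the higher ones, Slc25a24, Slc25a27 and Slc25a53 exceeded 1 CPM only in fasted livers. Of the lower ones, Slc25a35 exceeded 1 CPM only in refed livers, so the filter favoured these separations. Among members of known liver roles, the acylcarnitine carrier Slc25a20 was at 131 and 115 CPM refed and 172, 164 and 144 CPM fasted, with a log2 fold change of 0.38 (95% interval 0.09 to 0.66, edgeR adjusted p = 0.110), and was called by voomWithQualityWeights and DESeq2. Slc25a25, an ATP-Mg/phosphate carrier, had a difference of 1.31 with an interval from 0.14 to 2.48 (edgeR adjusted p = 0.172). Its WT Fasting values of 433, 141 and 151 CPM show that 1 mouse carried much of that difference, and 8.2% of its exonic bases overlap Naif1 on the other strand. The branched-chain amino acid carrier Slc25a44 had a difference of -0.51 (95% interval -0.89 to -0.12, edgeR adjusted p = 0.110), and was called by voomWithQualityWeights but not by DESeq2.

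The abundant carriers of citrate, malate and ornithine did not pass in edgeR's quasi-likelihood test. The log2 fold change between WT Fasting and WT Refed livers was 0.04 (95% interval -0.45 to 0.52) for Slc25a1, 0.31 (-0.24 to 0.85) for Slc25a10, which voomWithQualityWeights called, 0.11 (-0.20 to 0.43) for Slc25a11 and 0.07 (-0.25 to 0.40) for Slc25a15. It was 0.09 (-0.21 to 0.40) for Slc25a13 and 0.32 (-0.05 to 0.68) for Slc25a12. The ADP/ATP carrier Slc25a5 (0.03, -0.33 to 0.40) and the phosphate carrier Slc25a3 (0.08, -0.18 to 0.33) had intervals that end below the lower bound of Slc25a47, 1.27. Of the carriers of iron and glutathione, Slc25a39 had a difference of -0.03 (-0.60 to 0.53), Slc25a37 of -0.35 (-0.81 to 0.11) and Slc25a28 of 0.39 (-0.07 to 0.85). Of the 41 members, 24 had a 95% interval within a 2-fold change in either direction.

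The promoters of the called members are shown because these are the carriers whose mRNA differed between fasted and refed WT liver, higher in fasted liver for 4 of the 5 shown and lower for Slc25a45. RefSeq promoter windows (GRCm38.p6, 250 bases before to 50 after the annotated start) matched 36 of the 47 members by symbol, and 5 of the 7 called members had one. The windows lie at chr12:108850879-108851178 on the plus strand (Slc25a47), chr7:141437825-141438124 on the minus strand (Slc25a22), chr8:70212232-70212531 on the minus strand (Slc25a42), chr4:141623785-141624084 on the minus strand (Slc25a34) and chr19:5877572-5877871 on the plus strand (Slc25a45). Capitals mark the GC box GGGCGG and the CCAAT box on either strand.
Slc25a47: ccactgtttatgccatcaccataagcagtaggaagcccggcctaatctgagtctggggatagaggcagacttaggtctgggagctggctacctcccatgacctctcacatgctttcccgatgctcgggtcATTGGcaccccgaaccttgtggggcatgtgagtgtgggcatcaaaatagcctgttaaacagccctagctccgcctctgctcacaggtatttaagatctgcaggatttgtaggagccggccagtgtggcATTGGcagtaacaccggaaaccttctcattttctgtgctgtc
Slc25a22: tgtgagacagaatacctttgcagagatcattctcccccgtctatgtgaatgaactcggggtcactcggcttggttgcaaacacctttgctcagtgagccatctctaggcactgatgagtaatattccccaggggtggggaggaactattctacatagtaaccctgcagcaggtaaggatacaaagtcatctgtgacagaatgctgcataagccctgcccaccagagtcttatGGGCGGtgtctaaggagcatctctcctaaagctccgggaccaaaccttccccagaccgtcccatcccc
Slc25a42: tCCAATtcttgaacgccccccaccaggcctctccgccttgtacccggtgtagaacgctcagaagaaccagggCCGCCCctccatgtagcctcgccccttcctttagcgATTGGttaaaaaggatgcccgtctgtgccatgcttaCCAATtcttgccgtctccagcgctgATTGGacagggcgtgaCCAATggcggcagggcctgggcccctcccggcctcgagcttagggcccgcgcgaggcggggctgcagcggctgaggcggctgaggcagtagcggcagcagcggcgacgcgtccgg
Slc25a34: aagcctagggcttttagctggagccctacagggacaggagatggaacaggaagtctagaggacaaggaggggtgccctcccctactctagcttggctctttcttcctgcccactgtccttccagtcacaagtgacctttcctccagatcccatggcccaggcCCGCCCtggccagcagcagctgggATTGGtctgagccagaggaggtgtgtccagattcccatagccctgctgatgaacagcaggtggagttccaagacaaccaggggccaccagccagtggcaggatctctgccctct
Slc25a45: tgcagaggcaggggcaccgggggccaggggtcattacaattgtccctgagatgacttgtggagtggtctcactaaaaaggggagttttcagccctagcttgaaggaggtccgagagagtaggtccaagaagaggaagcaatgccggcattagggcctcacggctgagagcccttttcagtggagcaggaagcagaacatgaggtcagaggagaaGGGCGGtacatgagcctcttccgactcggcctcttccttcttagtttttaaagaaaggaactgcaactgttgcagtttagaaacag

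Slc25a47 had no GC box in its window and 2 CCAAT boxes, and the other 4 windows each had 1 GC box. Over the family, a GC box was found in 30 of 36 windows (83.3%), against 35.7% of all 32851 windows in the table, which include those of many genes that liver does not express. A CCAAT box was found in 17 of 36 (47.2%, against 37.4%). The E-box CACGTG was in 6 of 36 (16.7%, against 7.15%), none of them a window of a called member. The cAMP response element TGACGTCA was in 1 of 36 (2.78%, against 1.79%), that of Slc25a36. The direct repeat AGGTCANAGGTCA was in 0 of 36 (0.0396% of all windows). Both strands were searched, none of these letter strings contains another, and a match describes the letters only. The median GC content of the members' windows was 60.2%, against 52.7% for all windows.

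**Figure D3:**
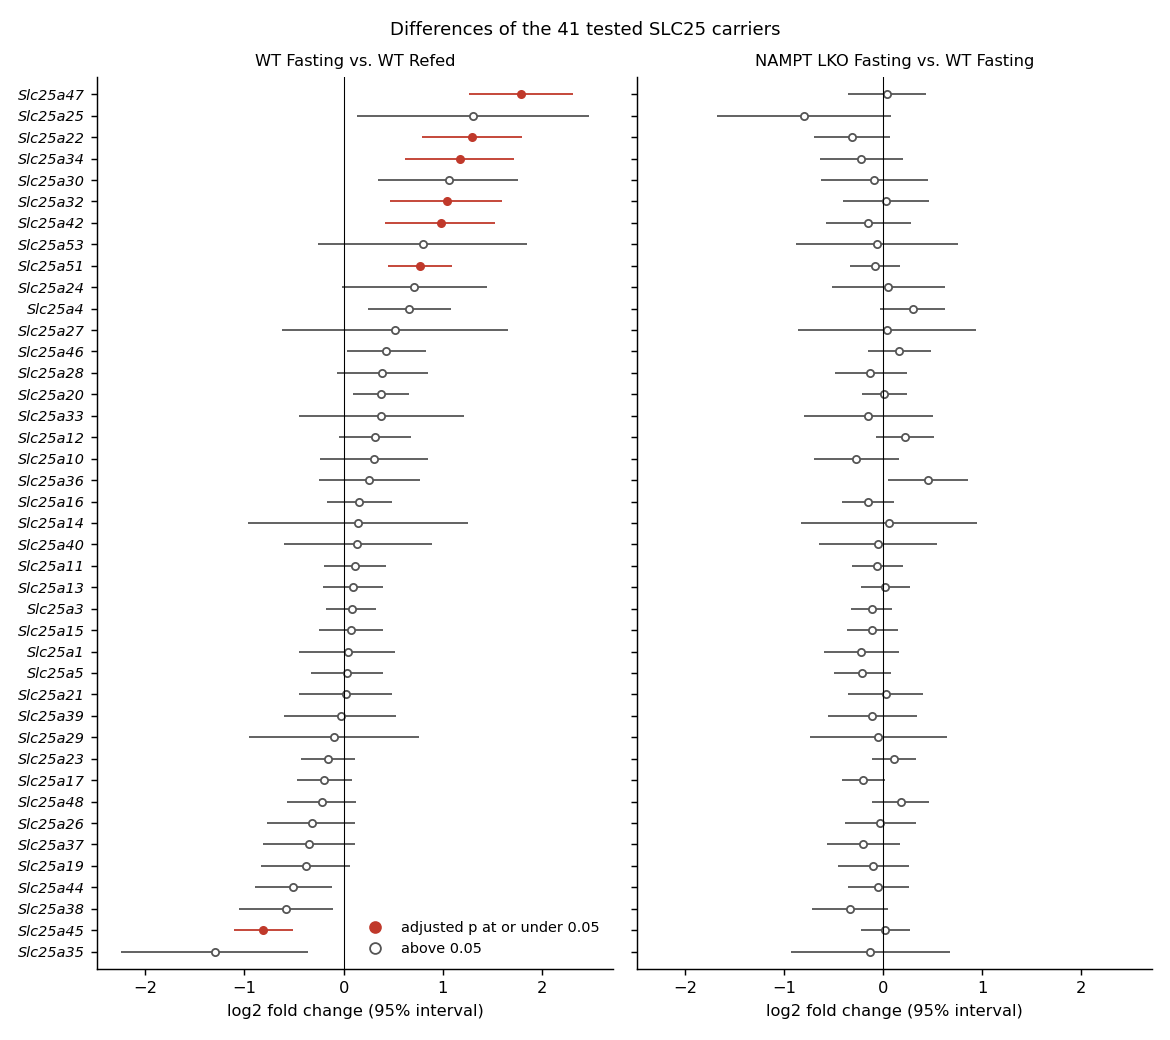
Log2 fold change with its 95% interval from edgeR's quasi-likelihood fit for the 41 tested carriers, ordered by the difference between WT Fasting and WT Refed livers (left panel) and with NAMPT LKO against WT in fasted liver beside it (right panel); filled red points passed an adjusted p of 0.05. The 7 filled points are all on the left, from -0.81 for Slc25a45 to 1.79 for Slc25a47, and on the right the values run from -0.80 to 0.45 with none filled.

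Loss of NAMPT in hepatocytes left no carrier with a called difference in fasted liver. Of the 41 tested members, 0 passed when NAMPT LKO Fasting livers were set against WT Fasting livers in edgeR's quasi-likelihood test (lowest adjusted p 0.827), and 0.00744% of all genes did, which is Nampt alone. By voomWithQualityWeights, edgeR's exact test and DESeq2 the count of members was also 0, and it was 0 without NAMPT LKO mouse 5. At an unadjusted p under 0.05, 1 member passed, against 6.03% of all genes. The log2 fold changes ran from -0.80 to 0.45 with a median of -0.06, against 0.0002 over all genes. The 95% interval lay within a 2-fold change for 40 of the 41 members and within a 1.5-fold change for 24, and the remaining intervals reach beyond these sizes. The cholangiocyte markers had a higher summed level in every NAMPT LKO liver than in any WT liver. Spp1, at 19.4 to 37.8 CPM in NAMPT LKO livers, made up most of that sum. Taken singly, Spp1 and Epcam were higher in every NAMPT LKO liver than in any WT liver, while Krt19 and Krt7 overlapped the WT Refed livers. Of these 4 markers, 0 were called here by edgeR's quasi-likelihood test or voomWithQualityWeights, 3 by the exact test, 3 by DESeq2 and 4 at an unadjusted p under 0.05, and their part in the carriers' values was not tested.

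The NAD carrier Slc25a51 was at 70.2, 89.4, 90.9, 74.7 and 85.3 CPM in the NAMPT LKO Fasting livers, next to 80.5 to 90.8 CPM in WT Fasting livers. The groups overlapped, and the difference was -0.08 on the log2 scale (95% interval -0.33 to 0.17). Slc25a47 was at 1113, 848, 924, 864 and 870 CPM, and its difference was 0.04 (-0.35 to 0.43). Both genes were therefore above both refed livers in every fasted liver of either genotype. The acylcarnitine carrier Slc25a20 had a difference of 0.01 (-0.21 to 0.24), the ornithine carrier Slc25a15 of -0.11 (-0.37 to 0.15), the aspartate/glutamate carrier Slc25a13 of 0.02 (-0.22 to 0.27) and the citrate carrier Slc25a1 of -0.22 (-0.60 to 0.16).

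The 5 members with the lowest unadjusted p in this comparison are given as a description. Slc25a36, a pyrimidine nucleotide carrier, was at 2.88 to 3.84 CPM in NAMPT LKO and 2.20 to 3.07 CPM in WT Fasting livers (log2 fold change 0.45, SE 0.18, edgeR adjusted p = 0.827). Slc25a17, the peroxisomal member of the family, had a difference of -0.20, and Slc25a38, a glycine carrier used in heme synthesis, of -0.33. Slc25a4 was at 4.65 to 6.27 CPM against 4.40 to 4.55 CPM. It was the 1 member without overlap between the groups, which was the case for 3.99% of all genes (log2 fold change 0.30, SE 0.15, edgeR adjusted p = 0.837). Slc25a25 was at 156, 76.8, 94.2, 223 and 143 CPM in NAMPT LKO livers and had the largest difference in size, -0.80 (95% interval -1.68 to 0.08). Without WT Fasting mouse 1, the mouse at 433 CPM, that difference was -0.07.

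NAMPT LKO Fasting livers were also set against the WT Refed livers, a comparison that shares its control mice with the WT comparison above and differs from it in the number of fasted mice. It called 14 of the 41 members, 9 higher and 5 lower, against 11.2% of all genes (4.65% higher and 6.58% lower). One of the 5 lower, Slc25a35, exceeded 1 CPM only in the refed livers and so entered the test through the group where it is high, which leaves 13 calls without it. Groups did not overlap for 21 members, against 33.5% of all genes. Among the 21, Slc25a24 exceeded 1 CPM only in fasted livers and Slc25a35 only in refed livers. The median log2 fold change was 0.09, against 0.0322 over all genes. Without NAMPT LKO mouse 5, 18 members were called, without NAMPT LKO mouse 2 or 3 the count was 8 or 9, and without WT Refed mouse 1 or 2 it was 2 or 1. Over all 13444 genes, the 1510 calls became 2835 without NAMPT LKO mouse 5, 984 without mouse 2 and 1097 without mouse 3. They also became fewer without either refed mouse. Under library size alone 8 members were called, and over all genes 371 were called higher and 1051 lower, against 625 and 885 here.

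Of the 7 carriers called in WT fasted liver, all 7 were called in NAMPT LKO fasted liver with the same sign, but this is no second observation of the refed mice. The log2 fold change against refed livers was 1.83 for Slc25a47 (1.79 in WT), 0.98 for Slc25a22 (1.30), 1.06 for Slc25a32 (1.04), 0.95 for Slc25a34 (1.17), 0.69 for Slc25a51 (0.77), 0.83 for Slc25a42 (0.98) and -0.78 for Slc25a45 (-0.81). The edgeR adjusted p values of these 7 ran from 0.000962 for Slc25a47 to 0.0443 for Slc25a42. The Slc25a42 call was lost in 7 of the 10 fits with 1 library left out (without NAMPT LKO mouse 1, 2, 3 or 4, WT Fasting mouse 2 or either refed mouse), under library size alone, with filterByExpr and with only the 2 groups compared, and the Slc25a34 call was lost under library size alone. Without WT Refed mouse 2, Slc25a47 alone of these 7 stayed called, and Slc25a45 stayed as well without WT Refed mouse 1. The highest and lowest NAMPT LKO values were 323 and 185 CPM for Slc25a22, 31.5 and 16.1 CPM for Slc25a32, 142 and 76.9 CPM for Slc25a42, 16.7 and 9.45 CPM for Slc25a34, and 19.6 and 16.1 CPM for Slc25a45. In each case the NAMPT LKO range overlapped the WT Fasting range and not the refed values.

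A further 3 carriers were called higher and 4 lower against refed livers in NAMPT LKO mice. None of these 7 passed in the direct comparison of the genotypes above (lowest adjusted p 0.837 among them), so a difference between genotypes was not shown. The ADP/ATP carrier Slc25a4 was 2.80 and 2.84 CPM in WT Refed livers and 4.65 to 6.27 CPM in NAMPT LKO livers (log2 fold change 0.96, SE 0.18, edgeR adjusted p = 0.0072). The aspartate/glutamate carrier Slc25a12 had a difference of 0.54 and Slc25a46, an outer membrane protein involved in mitochondrial shape, of 0.59. Both were near the threshold, with edgeR adjusted p values of 0.0487 and 0.0476, and lost their calls in 8 and 7 of the 10 fits with 1 library left out, among them those without either refed mouse. Slc25a38 was at 32.5 and 32.3 CPM in WT Refed livers and 11.9 to 21.2 CPM in NAMPT LKO livers, a difference of -0.91 (SE 0.19, edgeR adjusted p = 0.0131). Slc25a44 differed by -0.56 and Slc25a17 by -0.40 (edgeR adjusted p = 0.0441 and 0.0443), and these calls were lost in 6 and 7 of the left-out fits. Of the 9 alternatives other than left-out libraries, Slc25a12 and Slc25a46 lost their calls in 5 and 4. Slc25a44 and Slc25a17 lost theirs in 2 and 5. The orphan carrier Slc25a35 had the lowest log2 fold change, -1.43 (SE 0.38, edgeR adjusted p = 0.0359), but it was only 1.75 and 1.68 CPM in WT Refed and 0.414 to 0.814 CPM in NAMPT LKO livers, and 31.3% of its exonic bases overlap Rangrf on the other strand. It passed the filter only through the refed livers, so a lower value in the others was built into its selection, and its call was lost without NAMPT LKO mouse 2 or 3 or either refed mouse.

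The calls of edgeR's quasi-likelihood test can be counted by role. Over all genes, 7.04% were called in WT fasted liver against refed and 11.2% in NAMPT LKO fasted liver against refed. Of the 7 tested carriers without a settled substrate or with another role, 2 rose and 1 fell in WT fasted liver, and 3 rose and 2 fell, one of them Slc25a35, in NAMPT LKO fasted liver against refed. Of the 9 carriers of NAD, CoA and other cofactors and nucleotides, 3 rose in WT, and 3 rose and 1 (Slc25a17) fell in NAMPT LKO fasted liver. Of the 5 tested carriers of ornithine, aspartate, glutamate and basic amino acids, 1 rose in WT (Slc25a22) and 2 rose in NAMPT LKO fasted liver (Slc25a22 and Slc25a12). Of the 4 carriers of citrate, dicarboxylates and oxo-acids, 0 were called in any of the 3 comparisons by edgeR and 0 passed at an unadjusted p under 0.05, while voomWithQualityWeights called 1 in WT fasted liver and DESeq2 none. The 6 tested carriers of adenine nucleotides and phosphate held 1 call (Slc25a4 against refed in NAMPT LKO), and the 5 of iron, glutathione and glycine held 1 (Slc25a38). In WT fasted liver against refed, voomWithQualityWeights called 1 of these 6 and 2 of these 5, and DESeq2 called 1 and 0. In NAMPT LKO fasted liver against refed, voomWithQualityWeights called 1 and 3, and DESeq2 called 1 and 2. The 3 uncoupling-like carriers held 0, with 1 in each comparison against refed by voomWithQualityWeights, the exact test, DESeq2 and at an unadjusted p under 0.05. Over all 13444 genes, voomWithQualityWeights called 3331 in WT and 4281 in NAMPT LKO fasted liver against refed. DESeq2 called 1646 and 2242, the exact test 1198 and 1731, and 3002 and 3507 passed at an unadjusted p under 0.05. The counts by these settings stand against these totals, not against 7.04% and 11.2%.

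Genes that work beside the carriers were read the same way. Of the 4 enzymes of the carnitine shuttle, Crat, the carnitine acetyltransferase, was higher in WT fasted liver (log2 fold change 0.72, SE 0.17, edgeR adjusted p = 0.0262), and Crat (0.81), Crot (0.70) and Cpt1a (0.78) were higher in NAMPT LKO fasted than in refed liver. In WT fasted liver the differences of Crot (0.45) and Cpt1a (0.67) did not pass (edgeR adjusted p = 0.170 and 0.0616). Of the 4 enzymes, 3 passed there at an unadjusted p under 0.05, 3 by voomWithQualityWeights and 2 by DESeq2. Over all 13444 genes, 3002, 3331 and 1646 passed in these settings. Between the fasted genotypes, Crot and Cpt1a differed by 0.25 and 0.11 (edgeR adjusted p = 0.837 and 0.896), so a difference between genotypes was not shown. The acylcarnitine carrier Slc25a20 had differences of 0.38 in WT and 0.39 in NAMPT LKO fasted liver against refed. It did not pass in edgeR's quasi-likelihood test. Of the 12 tested genes for the import machinery of carrier proteins, 0 were called by edgeR in any comparison, with median log2 fold changes of -0.14 (WT fasted against refed), -0.11 (NAMPT LKO against WT, both fasted) and -0.21 (NAMPT LKO fasted against refed). In that last comparison 5 of the 12 passed at an unadjusted p under 0.05, 5 by voomWithQualityWeights and 2 by DESeq2. Over all 13444 genes, 3507, 4281 and 2242 passed in the same settings, so these counts are not read as a result about the list. Of the 12 tested related carriers outside the symbol rule, 0 were called by edgeR's quasi-likelihood test in any comparison (at most 1 at an unadjusted p under 0.05, 1 by edgeR's exact test, 2 by voomWithQualityWeights and 1 by DESeq2). Of the 5 urea cycle enzymes 0 were called by edgeR, with at most 1 unadjusted, 1 by voomWithQualityWeights and 0 by DESeq2. Of the 4 enzymes of the malate-aspartate shuttle, Got1 was higher in NAMPT LKO fasted than in refed liver (log2 fold change 1.18, SE 0.31, edgeR adjusted p = 0.0354). Its difference in WT fasted liver was 1.04 (SE 0.33, edgeR adjusted p = 0.0858), and 1 enzyme of this list was called there by each of voomWithQualityWeights, the exact test and DESeq2. Of the 5 enzymes that use citrate for lipid synthesis, Fasn, the fatty acid synthase, was lower in NAMPT LKO fasted than in refed liver (-0.94, SE 0.27, edgeR adjusted p = 0.0455), with -0.79 in WT fasted liver (adjusted p = 0.148). Of 4 further enzymes of NAD and NADP (Nmnat1, Nmnat3, Nadk2 and Nnt), 0 were called by edgeR's quasi-likelihood test in any comparison, with at most 1 unadjusted, 2 by voomWithQualityWeights and 1 by DESeq2.

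NAMPT LKO mouse 5 differed from the other mice of its group in several abundant carriers. Slc25a39 was 255 CPM in mouse 5 and 469 to 538 CPM in mice 1 to 4. Slc25a10 was 123 CPM against 228 to 256 CPM, and Slc25a1 was 102 CPM against 172 to 188 CPM. Slc25a47 was within the range of the others, at 870 CPM against 848 to 1113 CPM. Across the 41 tested members, the deviation of mouse 5 from the others went down with the GC content of the transcripts, with Spearman's rho of -0.61. Over 13369 genes with a GC value it was -0.58. In NAMPT LKO mice 1 to 4 the same rho over the 41 members was 0.10 to 0.47. Each mouse was set against the mean of the others in its group, mouse 5 among them, so these values are not independent of mouse 5. The points are genes of a single library that share its depth and base composition, so the rho is a description.

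**Figure D4:**
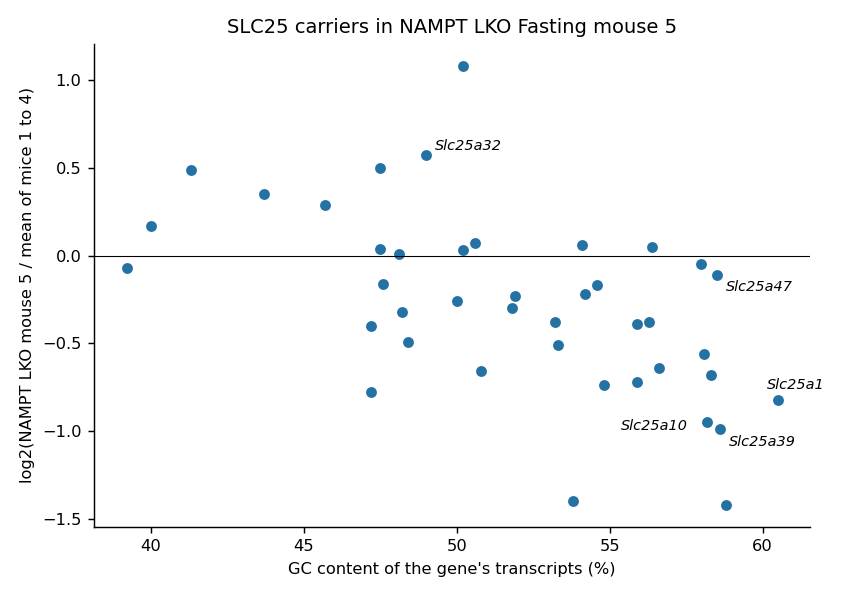
Log2 ratio of NAMPT LKO mouse 5 to the mean of NAMPT LKO mice 1 to 4 (vertical axis) against the GC content of each gene's transcripts in percent (horizontal axis) for the 41 tested carriers, with 5 of the named carriers labelled. Points at high GC content lie mostly under 0, with Slc25a39 at -0.99, Slc25a10 at -0.95 and Slc25a1 at -0.82, while Slc25a47 is at -0.11 and Slc25a32 at 0.57.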

How the data were processed

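Liver poly-A RNA of 10 mice was sequenced as single reads of 50 bases, 1 library per mouse, and grouped by the labels. Per the labels, the authors aligned reads with STAR 2.5.1a to GRCm38 and counted reads per gene with featureCounts 1.4.6-p5. The study's methods name other versions of both, and the strand setting is not given in the sources used here, so overlapping genes on either strand cannot be told apart. The deposited counts were used as they stand. The deposited CPM values are the counts divided by the total of the library, and the deposited RPKM values also divide by exonic length. RPKM was used only to compare levels between genes.

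All later steps were run for this report. A gene had to exceed 1 CPM in 1 or more libraries, and 4 rRNA genes were removed, leaving 13444. TMM-scaled counts were tested with edgeR 4.0.16 (quasi-likelihood test, R 4.3.3), fitting the 3 group means to all 10 libraries at once, with Benjamini-Hochberg adjustment. Intervals are 95%. Alternatives were voomWithQualityWeights (limma 3.58.1), edgeR's exact test, DESeq2 1.42.0, other scalings and filters, an unadjusted threshold, fits restricted to the pair of groups, omission of each library in turn and a replicate block. The fit was tested on simulated data. Every pair of replicates differed by more than sampling noise. The labels do not say whether the mice were handled in batches, and p-values measure the spread between these mice. Total counts per library limit precision mainly for members under about 1 CPM.

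The members and gene lists were chosen with earlier results of these data known. The named genes are the members called in a comparison, the 5 of lowest p for NAMPT LKO against WT in fasted liver, the 5 of highest RPKM in WT Fasting livers, and 20 members chosen by role. Members apart from these are named for the filter or for an outlying value. Of the listed marker and neighbour genes, those called in a comparison were named where they bear on the carriers. By edgeR's quasi-likelihood test, the marker lists gave, of the genes tested against refed in NAMPT LKO livers, 1 called of 5 stellate cell, 1 of 4 sinusoidal endothelium, 1 of 1 pancreas, 2 of 4 cholangiocyte and 0 of the Kupffer cell, red blood cell, neutrophil and adipocyte genes, and 0 in the other comparisons. Other tools gave other counts. For NAMPT LKO against WT in fasted liver, the exact test called 3 cholangiocyte genes, and DESeq2 called 3 and 1 stellate cell gene. For NAMPT LKO against refed, voomWithQualityWeights called 4 stellate cell, 2 sinusoidal endothelium and 1 Kupffer cell genes. DESeq2 called 2 stellate cell genes and 1 Kupffer cell gene there, and the exact test 0 of sinusoidal endothelium. Over all 13444 genes, these 3 tools called 4281, 2242 and 1731 there, and the quasi-likelihood test 11.2%. In WT fasted liver against refed, voomWithQualityWeights called 1 Kupffer cell gene and 1 cholangiocyte gene. Ckm and Myh4 of skeletal muscle, Prss2, Cpa1 and Pnlip of pancreas, and Adipoq and Plin1 of adipocytes were at or under 10 counts in every library.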

Additional observations from a re-analysis of the deposited data

Results flagged for a closer look

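Among the 5 fasted livers of NAMPT LKO mice, the gap of the highest or lowest mouse to its nearest neighbour was divided by the range of the group for each of the 41 tested carriers. For 6 carriers this share was above 0.71, the 95% limit for 5 samples, where chance flags about 1 in 20 groups, or 2.1 of 41. NAMPT LKO mouse 5 was the lowest in 3 of them: Slc25a1 (share 0.817, 102 CPM against 172 to 188 CPM), Slc25a10 (0.789, 123 CPM against 228 to 256 CPM) and Slc25a39 (0.755, 255 CPM against 469 to 538 CPM). The same mouse had 21.13% of its counts on the mitochondrial genome. Its part in these values was not tested.

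Mouse 1 was the highest for Slc25a14 (0.73, 2.33 CPM against 0.705 to 1.15 CPM) and for Slc25a47 (0.712, 1113 CPM against 848 to 924 CPM). Mouse 3 was the highest for Slc25a34 (0.744, 16.7 CPM against 9.45 to 11.3 CPM). Slc25a14, named only for this value, is near 1 CPM, with 22 to 72 counts per library over the 10 libraries.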

How the results depend on the processing

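Alternatives were run by gene for the members called in each comparison with refed livers and for the 5 of lowest p between the fasted genotypes, and none of these reversed its direction in its comparison. Between WT Fasting and WT Refed livers, the 7 members called became 16 by voomWithQualityWeights, 11 by DESeq2 and 15 at an unadjusted p under 0.05, and 1 to 13 with 1 library left out. Over all genes, the 946 called became 3331, 1646 and 3002, 1617 with only the 2 groups compared, and 107 to 2235 with 1 library left out. For NAMPT LKO against WT in fasted liver, 0 members were called except at the unadjusted threshold (1), and the 1 gene called became 24 by the exact test, 24 by DESeq2, 2 under library size alone, 17 without a filter beyond 1 count, 3 with filterByExpr and 811 unadjusted, and 1 to 2 with 1 library left out. Between NAMPT LKO Fasting and WT Refed livers, the 14 members became 8 under library size alone, 9 with only the 2 groups compared and 1 to 18 with 1 library left out. Over all genes, the 1510 called became 4281 by voomWithQualityWeights, 3507 unadjusted and 226 to 2835 with 1 library left out. Slc25a47 kept its call against refed livers in every alternative and left-out fit, in WT and in NAMPT LKO livers. Without a refed mouse fewer samples enter the fit; for the other settings the cause was not tested.

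The labels number mice 1 to 3 in both Fasting groups. The same-numbered mice correlated in their deviations at 0.115, 0.064 and 0.127, higher than the differently numbered mice at -0.188 to 0.006. The study's methods name no block, so the main fit holds none. Whether the numbers mark pairs or a shared batch was not tested. With a replicate block over mice 1 to 3, 0 genes and 0 members were called, and without the block mice 1 to 3 alone also gave 0 and 0 (3 members at an unadjusted p under 0.05 in either edgeR fit).

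Leaving out a refed mouse leaves 1, whose spread is then taken from the other groups. Members under about 1 CPM, and differences smaller than the intervals, were not resolved at this depth.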
